A study of Drosophila melanogaster with 8 samples.

Results

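Epigallocatechin gallate (EGCG), the main catechin of green tea, was given to adult male flies in a high-fat diet (HFD), and their RNA was set against that of males on the high-fat diet alone. The HFD+EGCG group and the HFD group each had 1 library, so the comparison uses 2 of the 8 libraries of the series. It is described over all genes, and 13074 of the 17655 genes in the tables had at least 1 FPKM in either library. FPKM counts sequenced fragments per length of transcript and per size of library, and can therefore be compared between genes.

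The flies of all groups were Canton S, a wild-type laboratory strain of Drosophila melanogaster, with no transgene or mutation named. They were 15 days old, had been on their diet for 7 days and then spent 2 h on standard food before collection. RNA came from bodies without wings or legs. Males on the normal diet (ND), with 1 library, serve as a level to read the other values against. The pair of female libraries on HFD+EGCG and on HFD is set beside some values, and differences between the sexes were not tested. The labels used here state neither the dose of EGCG nor what the high-fat diet contained, nor how many flies made up a library. With 1 library a side no test was possible, and a difference stands for these libraries, which may differ for technical reasons as well as by diet.

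A whole male body mixes several organs whose transcripts can be told apart by name. The midgut makes secreted digestive enzymes, among them amylases, maltases and serine proteases. The fat body, together with blood cells and epithelia, makes the short secreted peptides of the Toll and Imd immune pathways. The testis makes a large set of transcripts found in few other places, the accessory gland makes the seminal fluid proteins passed to the female at mating, and the antennae secrete odorant-binding proteins around the olfactory neurons. In such bulk RNA, fewer cells of a type and less RNA per cell cannot be told apart.

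The sex and tissue labels were checked on defining genes. Yp1 and Yp2, which encode yolk proteins, stood at 0 in the male libraries. Another yolk protein gene, Yp3, had 12 FPKM in HFD+EGCG males, 12 FPKM in HFD males and 9 FPKM in ND males. In females Yp3 had 2518 FPKM on HFD+EGCG and 1895 FPKM on HFD. The accessory gland gene Mst57Db had 27656 FPKM in HFD+EGCG males, 34231 FPKM in HFD males and 39016 FPKM in ND males. The rhodopsin gene ninaE had 5054, 5121 and 3704 FPKM in HFD+EGCG, HFD and ND males, so that head tissue with eyes was part of the bodies. Summed FPKM was 969382 in the HFD+EGCG library, 1000513 in the HFD library and 938655 in the ND library, and the numbers of genes listed above 0 were 12758, 12882 and 12892 in that order. Rounded FPKM keep no count of reads, so the depth is unknown and no counting interval can be given.

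Over all genes the 2 libraries were close to each other. The median difference of log2(FPKM + 1), HFD+EGCG minus HFD, was -0.03 over the 13074 genes, with 3462 genes above 0 (26.5%) and 6622 below (50.7%). At least 2-fold differences on that scale were met by 275 genes in the higher direction (2.10%) and by 401 in the lower direction (3.07%). Most of these were genes near the rounding step of 1 FPKM. Of genes whose larger value lay between 1 and 2 FPKM, 39.8% counted as 2-fold, against 1.2% of those between 10 and 30 FPKM. Among the 8158 genes that reached 10 FPKM, 30.6% were above 0 and 58.4% below, and 2-fold differences were met by 58 in the higher direction (0.711%) and 38 in the lower (0.466%). Of the 2-fold genes in all, 40.7% were higher, but 76.8% were after the libraries were scaled to 1 common sum, which left 84 genes at least 2-fold lower. Genes at 0 FPKM against 1 FPKM lie exactly at the 2-fold limit, and a small scaling moves them across it. Of the 401 lower genes, 265 had a larger value between 1 and 2 FPKM, so that swing is not a result about direction.

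Direction differed sharply between groups of genes, as the plot of gene lists shows. Bomanin immune peptides and digestive carbohydrases lay highest by their medians, and testis, accessory gland and respiratory chain genes lay lowest.

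**Figure D1:**
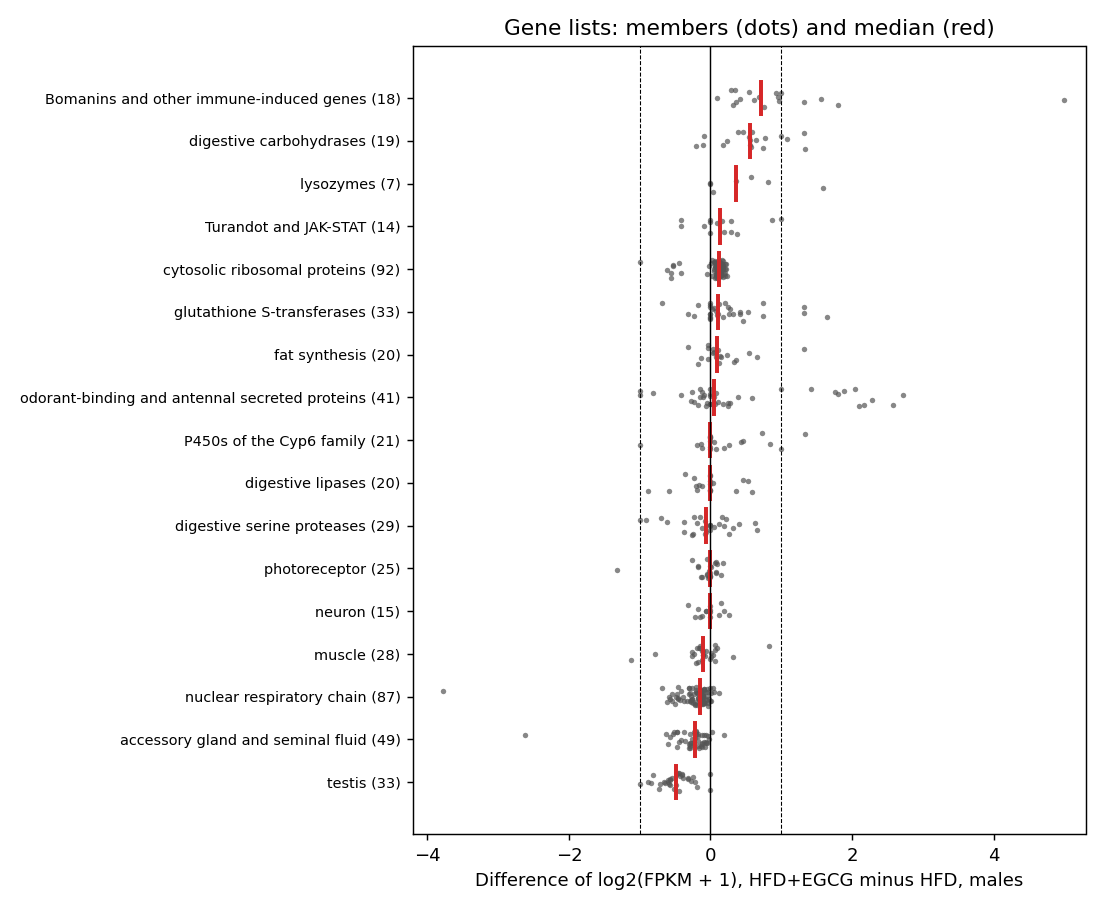
Difference of log2(FPKM + 1) between HFD+EGCG and HFD males for the members of 17 of the 45 gene lists, with the number of members described in brackets. Each dot is 1 gene, the red bar is the list's median and the dashed lines mark 2-fold. The medians drawn run between 0.72 for Bomanins and -0.48 for testis genes. The lists that hold Cyp4g1 and mt:CoI, which were listed at 0 in 1 library, are not drawn, and neither are other lists.

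The carbohydrase list holds gut enzymes that break down starch and sugars, and also lysosomal alpha-mannosidases and a trehalase. Its members were mostly higher in HFD+EGCG males than in HFD males. Of 19 carbohydrases described, 16 were above 0 and 3 below, with a median of 0.56 against -0.03 over all genes, and 2-fold was reached by 4 in the higher direction, against 2.10% of all genes, and by 0 in the lower. The maltases, which split maltose and sucrose into absorbable sugars, made up most of the list, and 9 of 10 were above 0.

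Mal-A1 had 458 FPKM in HFD+EGCG males, 182 FPKM in HFD males and 921 FPKM in ND males. Its level in HFD+EGCG males lay between those of the other libraries, with a log2 difference of 1.33 from HFD males. Mal-A6 had 136 FPKM in HFD+EGCG males against 64 FPKM in HFD males and 369 FPKM in ND males, and Mal-B1 had 52, 20 and 70 FPKM in the same order of diets. The same order of libraries therefore held for the 3 maltases. The target of brain insulin tobi, an alpha-glucosidase gene named for its response to insulin-like and adipokinetic signals, had 47 FPKM in HFD+EGCG males, 23 FPKM in HFD males and 273 FPKM in ND males. It was the member farthest below its ND level among those named here.

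The starch-splitting amylases did not share a direction. Amy-p had 464 FPKM in HFD+EGCG males, 310 FPKM in HFD males and 1110 FPKM in ND males, whereas its close copy Amy-d had 168, 180 and 258 FPKM. How the authors' software divided reads between these copies is not stated, so each copy's value is uncertain. The 5 lysosomal alpha-mannosidases of the LMan family described were above 0, with LManVI at 24 FPKM in HFD+EGCG males, 15 FPKM in HFD males and 27 FPKM in ND males. Besides Amy-d, the members below 0 were Mal-A5, with 51 FPKM in HFD+EGCG males against 59 FPKM in HFD males, and the trehalase gene Treh, with 115 against 123 FPKM.

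Set side by side, the list's median was 0.56 for HFD+EGCG over HFD, -1.14 for HFD over ND and -0.59 for HFD+EGCG over ND. These comparisons share libraries with each other, so they are not separate measurements. Over all genes described the medians were -0.03, 0.02 and 0.00 in the same order. In females the median for HFD+EGCG over HFD was -0.06, against 0.00 over all genes, and Mal-A1 had 114 FPKM in HFD+EGCG females against 173 FPKM in HFD females.

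**Figure D2:**
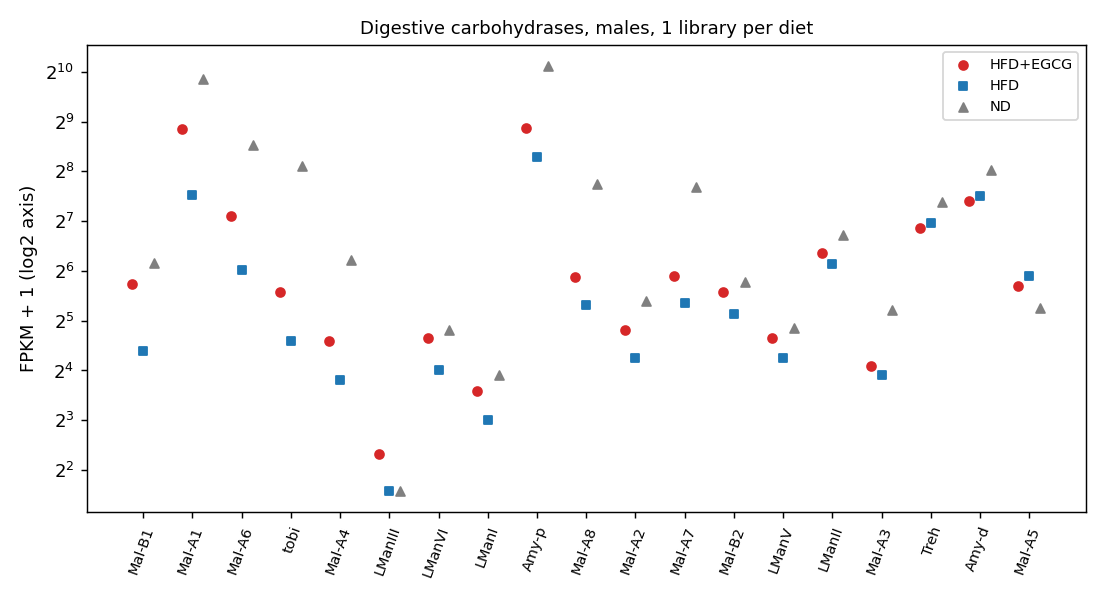
Level of each digestive carbohydrase in the HFD+EGCG, HFD and ND male libraries, as FPKM + 1 on a log2 axis, ordered by the difference between HFD+EGCG and HFD. For Mal-A1 the points stand at 458, 182 and 921 FPKM, and 16 of the 19 genes have the HFD+EGCG point above the HFD point.

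The lists of gut serine proteases and of digestive lipases, each taken whole, did not share that direction. Of 29 serine proteases of the gut described, 10 were above 0 and 15 below, with a median of -0.06, which became 0.02 when differences were centred on the median of genes at 10 FPKM or more. The Jonah proteases, which are chymotrypsin-like and trypsin-like enzymes of the midgut, had 2 of 15 above 0 and 11 below. The trypsins had 7 of 11 above 0 and 3 below.

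Among the Jonah genes, Jon25Bii had 33 FPKM in HFD+EGCG males, 63 FPKM in HFD males and 73 FPKM in ND males, a log2 difference of -0.91. Jon25Bi had 20 FPKM in HFD+EGCG males, 33 FPKM in HFD males and 132 FPKM in ND males, and Jon99Cii had 243, 373 and 627 FPKM. In these 3 genes the HFD+EGCG library was the farthest from ND. In females Jon99Cii had 333 FPKM on HFD+EGCG and 192 FPKM on HFD, the opposite order. Among the trypsins kappaTry had 64 FPKM in HFD+EGCG males, 40 FPKM in HFD males and 46 FPKM in ND males, and etaTry had 30, 19 and 23 FPKM. The abundant betaTry had 4160 FPKM in HFD+EGCG males, 3811 FPKM in HFD males and 3618 FPKM in ND males. For these 3 trypsins HFD+EGCG males were the highest of the 3 libraries. Of 20 genes in the digestive lipase list, 5 were above 0 and 8 below, with a median of 0.00. Among those below, CG6472, CG18301, CG17097, CG11608 and CG18284 were listed at 0 in all female libraries. Whether these act in the gut was not tested. The 5 above 0 were found in females too, as were CG17192, mag and CG8093 among those below. The lipase-family gene CG17192 had 19 FPKM in HFD+EGCG males, 36 FPKM in HFD males and 19 FPKM in ND males. The gastric lipase gene mag (magro), which acts on triglycerides and sterol esters in the gut, had 64 FPKM in HFD+EGCG males against 82 FPKM in HFD males and 137 FPKM in ND males. Both lipases were thus lower in HFD+EGCG than in HFD males. Other members of the family were higher, with CG10116 at 57 FPKM in HFD+EGCG males against 39 FPKM in HFD males, CG6277 at 58 against 42 FPKM and CG6283 at 178 against 138 FPKM. The most abundant in HFD males, CG17097, had 478 FPKM in HFD+EGCG males, 546 FPKM in HFD males and 796 FPKM in ND males, and was listed at 0 in these female libraries.

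The list with the highest median was that of the Bomanins and other genes induced on infection. Bomanins are short secreted peptides made under Toll signalling, which flies need to resist many Gram-positive bacteria and fungi. All 18 genes described in the list were above 0, with a median of 0.72, and 5 counted as at least 2-fold higher, against 2.10% of all genes described. One of the 5 was Dso2, listed at 0 in HFD males, and 4 were left without it. Of the 12 Bomanins proper, 12 were above 0.

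BomS1 had 52 FPKM in HFD+EGCG males, 17 FPKM in HFD males and 43 FPKM in ND males, a log2 difference of 1.56. BomS2 had 259 FPKM in HFD+EGCG males against 133 FPKM in HFD males and 293 FPKM in ND males. BomS3 had 1984, 1236 and 1901 FPKM in the same order of diets, and BomS5 had 197, 100 and 142 FPKM. In these 4 genes the HFD library was the lowest of the 3. The most abundant member, BomS6, differed less, with 2313 FPKM in HFD+EGCG males, 1813 FPKM in HFD males and 2567 FPKM in ND males. The member with the smallest difference was BomS4, with 80 FPKM in HFD+EGCG males and 75 FPKM in HFD males.

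Not every member was near its ND level in HFD+EGCG males. IBIN, a small peptide gene induced by infection, had 6 FPKM in HFD+EGCG males, 1 FPKM in HFD males and 252 FPKM in ND males. The Daisho peptide gene Dso1 had 1218 FPKM in HFD+EGCG males, 944 FPKM in HFD males and 2036 FPKM in ND males, whereas Dso2 had 31 FPKM in HFD+EGCG males and was listed at 0 in HFD and ND males and in both of these female libraries. The median of the list was -0.76 for HFD over ND, and 0.70 for males on the high-fat diet with quercetin glucoside, the other compound of the series, over the same HFD library. The shared HFD library enters each of these medians. In females the list had 8 members above 0 and 9 below, with a median of -0.02, where 44.0% of all genes described were above 0 and 34.6% below.

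The antimicrobial peptide list was divided by gene. Of 19 described, 10 were above 0 and 8 below, with a median of 0.06. The 10 include the Daisho genes Dso1 and Dso2, which the list shares with that of the Bomanins and other immune-induced genes. Metchnikowin (Mtk) had 129 FPKM in HFD+EGCG males, 79 FPKM in HFD males and 350 FPKM in ND males, and drosocin (Dro) had 30, 17 and 223 FPKM. Both were higher in HFD+EGCG than in HFD males and were under their ND levels. The diptericin gene DptA had 12 FPKM in HFD+EGCG males, 19 FPKM in HFD males and 99 FPKM in ND males, and the cecropin gene CecA1 had 179, 274 and 268 FPKM. These 2 were lower in HFD+EGCG than in HFD males, as was the attacin gene AttB, with 16 against 26 FPKM. Drosomycin (Drs), a Toll-induced antifungal peptide, had 207 FPKM in HFD+EGCG males, 172 FPKM in HFD males and 157 FPKM in ND males, and its relative Drsl5 had 305, 184 and 182 FPKM. Both were highest in HFD+EGCG males. Of 7 lysozymes, which are mostly gut enzymes in flies, 5 were above 0, with a median of 0.37. That median rested on LysX, with 6 FPKM in HFD+EGCG males against 3 FPKM in HFD males, and LysS, with 2 against 0 FPKM. It was 0.03 among lysozymes at 10 FPKM or more and 0.20 without LysS. LysP had 478 FPKM in HFD+EGCG males, 321 FPKM in HFD males and 217 FPKM in ND males, and LysC had 2587, 2007 and 1371 FPKM. LysD had 2310 FPKM in HFD+EGCG males, 2322 FPKM in HFD males and 1402 FPKM in ND males, and LysB had 148, 145 and 110 FPKM. LysP and LysC were highest in HFD+EGCG males, and LysD and LysB were nearly level between HFD+EGCG and HFD males. The Turandot and JAK-STAT list, which holds stress-induced secreted peptides and the cytokine pathway that acts on some of them, had 8 of 14 above 0 and 3 below. TotM had 10 FPKM in HFD+EGCG males against 5 FPKM in HFD males, and TotX had 5 against 7 FPKM. TotA had 32 FPKM in HFD+EGCG males against 26 FPKM in HFD males, the pathway inhibitor Socs36E had 12 against 9 FPKM, and the virus-induced gene vir-1, the most abundant of the list, had 498 against 405 FPKM.

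Of the 12 genes named for the highest differences, 6 were odorant-binding or other secreted proteins of the antenna. That ranking asked for 10 FPKM in either library. Obp83a, Os-C, Obp28a and Obp19a reached it in HFD+EGCG males alone, so the count depends in part on that filter. Such antennal proteins fill the lymph of the sensory hairs, where several of them carry odorants or pheromones toward the receptors. Of 41 members described, 21 were above 0 and 15 below, with a median of 0.06, but 11 reached 2-fold in the higher direction, against 2.10% of all genes, and 2 in the lower, against 3.07%. The high and the level members were different genes rather than a general shift of the family.

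Obp83a, an antennal gene once described as pheromone-binding protein related, had 52 FPKM in HFD+EGCG males, 7 FPKM in HFD males and 23 FPKM in ND males, a log2 difference of 2.73. Its neighbour on chromosome arm 3R, Obp83b, had 61 FPKM in HFD+EGCG males, 14 FPKM in HFD males and 32 FPKM in ND males. Os-C, an olfactory-specific secreted protein, had 38, 7 and 25 FPKM in the same order of diets. For each of these 3 genes HFD+EGCG males were highest and HFD males lowest. The antennal protein gene a10 had 46 FPKM in HFD+EGCG males, 10 FPKM in HFD males and 30 FPKM in ND males. Obp28a had 25 FPKM in HFD+EGCG males, 6 FPKM in HFD males and 9 FPKM in ND males, and Obp19a had 16, 4 and 11 FPKM. The order of the libraries was again the same. Males given quercetin glucoside had 39 FPKM of Obp83a, 57 of Obp83b, 34 of Os-C, 40 of a10, 18 of Obp28a and 15 of Obp19a. For these 6 genes that library lay above HFD males and below HFD+EGCG males. In females none of the 11 genes was above 0 and 7 were below, and Obp83a had 5 FPKM on HFD+EGCG and 8 FPKM on HFD.

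Other members, expressed in taste organs and elsewhere in the body, did not follow. Obp56d had 548 FPKM in HFD+EGCG males, 420 FPKM in HFD males and 338 FPKM in ND males, while Obp99b had 11, 20 and 87 FPKM. The most abundant member, Obp56g, had 1941 FPKM in HFD+EGCG males, 1868 FPKM in HFD males and 1828 FPKM in ND males. Obp99b was thus lower in HFD+EGCG males, and Obp56d was higher by less than 2-fold. The olfactory co-receptor gene Orco, which marks most olfactory neurons, was near the rounding limit, with 2 FPKM in HFD+EGCG males, 0 FPKM in HFD males and 1 FPKM in ND males. Snmp1, a membrane protein of pheromone-sensing neurons and their supporting cells, had 7, 6 and 7 FPKM. Whether the amount of antennal tissue differed between libraries was not tested.

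**Figure D3:**
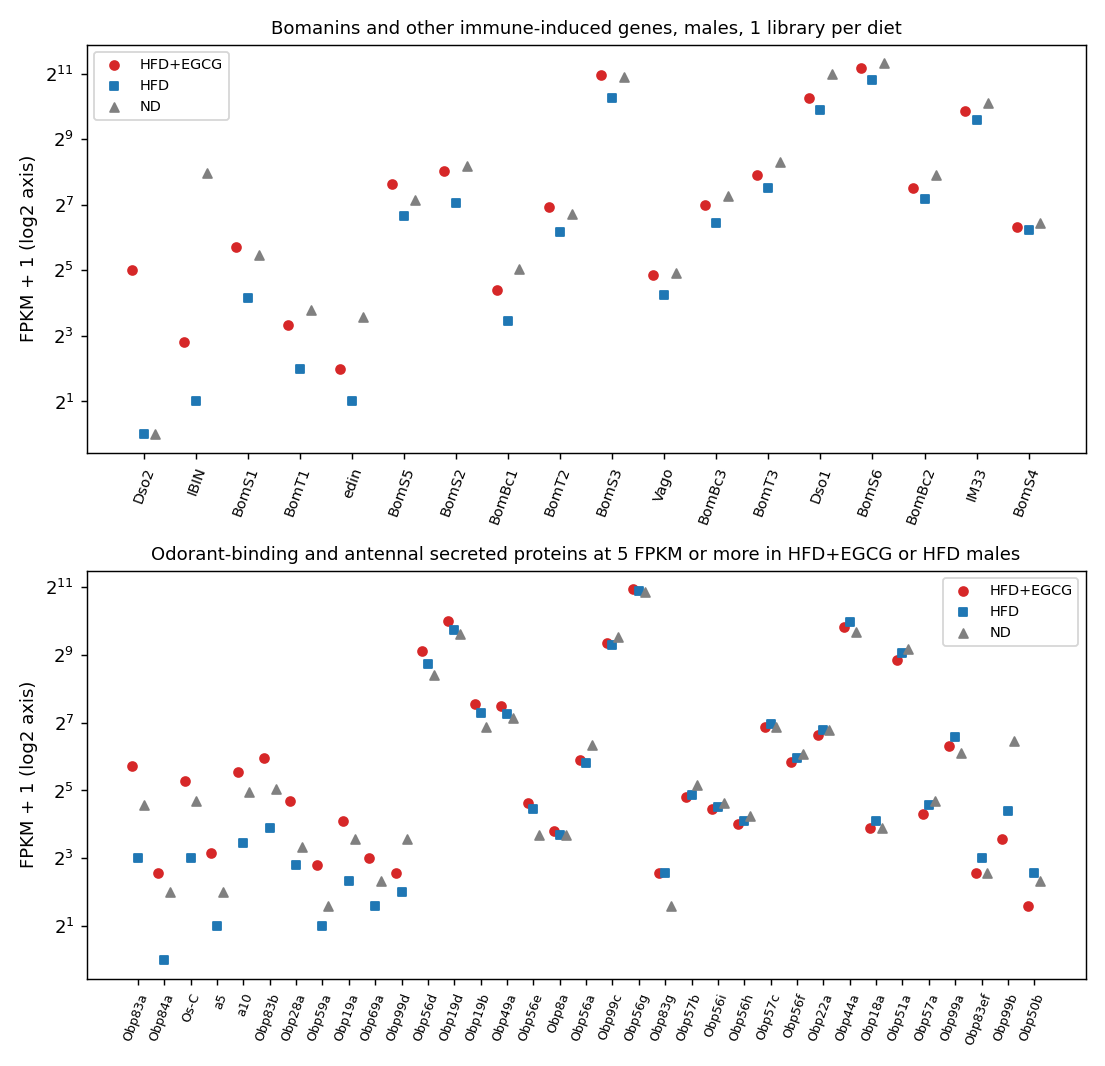
Levels of the 18 immune-induced genes (upper panel) and of the odorant-binding and antennal proteins that reached 5 FPKM in HFD+EGCG or HFD males (lower panel), as FPKM + 1 on a log2 axis, in 1 library per diet. In the upper panel the HFD+EGCG point lies above the HFD point for all 18 genes; in the lower panel a block of genes at the left, led by Obp83a, stands apart and the rest of the points lie close together.

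Enzymes that process foreign compounds showed scattered differences. Of 21 P450 genes of the Cyp6 family, which oxidise plant toxins and insecticides, 10 were above 0, 4 below and 7 equal, and 2-fold was reached by 2 in the higher direction, against 2.10% of all genes, and by 1 in the lower, against 3.07%. The lower one was Cyp6a14, at 0 FPKM in HFD+EGCG males and 1 FPKM in HFD males. Cyp6a21 had 52 FPKM in HFD+EGCG males, 20 FPKM in HFD males and 19 FPKM in ND males, and in females it had 154 FPKM on HFD+EGCG and 67 FPKM on HFD. Cyp6a8 had 29 FPKM in HFD+EGCG males, 14 FPKM in HFD males and 3 FPKM in ND males, and in females 19 FPKM against 3 FPKM. Cyp6w1 had 217 FPKM in HFD+EGCG males, 161 FPKM in HFD males and 63 FPKM in ND males, with 192 against 37 FPKM in females. These 3 genes, together with Cyp6d5 at 143 FPKM in HFD+EGCG males against 86 FPKM in HFD males and 185 against 78 FPKM in females, were higher on HFD+EGCG in each sex. Cyp6a23 had 24 FPKM in HFD+EGCG males against 13 FPKM in HFD males, and the most abundant member, Cyp6g1, known for its part in insecticide resistance, had 271 against 226 FPKM.

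Of 49 P450 genes outside the Cyp6 family, 21 were above 0 and 18 below. Cyp9b2 had 134 FPKM in HFD+EGCG males, 57 FPKM in HFD males and 117 FPKM in ND males, and in females it had 94 FPKM on HFD+EGCG and 102 FPKM on HFD. Cyp309a1 had 13 FPKM in HFD+EGCG males, 6 FPKM in HFD males and 34 FPKM in ND males, and Cyp28a5 had 48, 29 and 34 FPKM. These 3 were higher in HFD+EGCG than in HFD males. Glutathione S-transferases, which attach glutathione to reactive compounds, had 21 of 33 members above 0 and 4 below, with a median of 0.10. GstD2 had 21 FPKM in HFD+EGCG males, 6 FPKM in HFD males and 13 FPKM in ND males, a log2 difference of 1.65, and 31 FPKM in both female libraries. The most abundant transferase named here, GstD1, had 1197 FPKM in HFD+EGCG males against 825 FPKM in HFD males and 907 FPKM in ND males. Both were highest in the HFD+EGCG library, as were GstE10, with 43 FPKM in HFD+EGCG males against 31 FPKM in HFD males, and GstE13, with 23 against 17 FPKM. Of 25 UDP-glycosyltransferases, which attach sugars to small molecules, 11 were above 0 and 9 below, and Ugt37A2 had 20 FPKM in HFD+EGCG males, 7 FPKM in HFD males and 19 FPKM in ND males. Ugt303B3 had 16 FPKM in HFD+EGCG males against 13 FPKM in HFD males, while Ugt305A1, with 32 against 40 FPKM, and Ugt50B3, with 85 against 104 FPKM, were lower. Of 23 antioxidant genes and members of the cnc pathway, the fly counterpart of Nrf2, 14 were above 0 and 7 below, and none was 2-fold different. Thioredoxin 2 (Trx2) had 179 FPKM in HFD+EGCG males and 143 FPKM in HFD males, its reductase Trxr1 had 155 against 137 FPKM, catalase (Cat) had 525 against 461 FPKM and superoxide dismutase 1 (Sod1) had 1085 against 1026 FPKM. Peroxiredoxin 4 (Prx4) was lower, with 37 FPKM in HFD+EGCG males against 45 FPKM in HFD males.

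Genes of the male reproductive organs were lower in HFD+EGCG males. Of 33 testis genes described, 31 were below 0 and 2 were equal, with a median of -0.48, where 50.7% of all genes were below 0. However, only 1 of them, bam, counted as 2-fold lower, against 3.07% of all genes, and that at 0 FPKM against 1 FPKM. Genes of late spermatogenesis were among the lowest. Ocnus (ocn) had 227 FPKM in HFD+EGCG males, 419 FPKM in HFD males and 382 FPKM in ND males. Mst84Da, a sperm-tail protein gene, had 254, 457 and 477 FPKM, and don juan (dj), a sperm protein, had 62, 110 and 113 FPKM. Its relative djl had 39 FPKM in HFD+EGCG males and 65 FPKM in both HFD and ND males. In these 4 genes HFD and ND males were close to each other and HFD+EGCG males were lower. The testis tubulin betaTub85D differed less, with 289 FPKM in HFD+EGCG males, 391 FPKM in HFD males and 336 FPKM in ND males, as did the abundant Mst84Db, with 504, 665 and 540 FPKM. Spermatocyte arrest (sa), which encodes a testis-specific TAF needed in spermatocytes, had 12, 12 and 11 FPKM, without a difference between HFD+EGCG and HFD males at this rounding.

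Of 49 genes of the accessory gland and seminal fluid, 47 were below 0 and 2 above, where 50.7% of all genes were below 0. The median was -0.22, and it was -0.23 for males given quercetin glucoside over the same HFD library. Sex peptide (SP), which alters the mated female's behaviour and egg laying, had 4545 FPKM in HFD+EGCG males, 5566 FPKM in HFD males and 4570 FPKM in ND males. Acp98AB had 2027 FPKM in HFD+EGCG males, 2815 FPKM in HFD males and 3409 FPKM in ND males. Among the less abundant members, Sfp79B had 52 FPKM in HFD+EGCG males against 81 FPKM in HFD males, Sfp24Ba had 102 against 155 FPKM and Sfp33A1 had 28 against 42 FPKM. The seminal fluid gene Sfp96F was farther from 0 than any other member, with 380 FPKM in HFD+EGCG males, 2332 FPKM in HFD males and 545 FPKM in ND males. There the HFD library was high and the other libraries were closer to each other. Sfp96F is a short gene at 25830061 to 25830228 on chromosome arm 3R, beside Mst57Db.

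The same direction was seen in a wider set chosen after these values were seen, by a rule that uses neither of the compared libraries. It took protein-coding genes listed at 0 in the 4 female libraries and at 10 FPKM or more in ND males. Of its 1419 genes, 1366 (96.3%) were below 0 and 36 above, against 58.4% below among all genes at 10 FPKM or more, with a median of -0.43 and quartiles of -0.54 and -0.29. Of these, 4 reached 2-fold, against 0.466% of all genes at 10 FPKM or more. Leaving out the accessory gland list gave 1373 genes with the same median of -0.43. Summed over the set, FPKM was 144715 in HFD+EGCG males, 183509 in HFD males and 176146 in ND males. The median was 0.09 for HFD over ND, and -0.18 for males given quercetin glucoside over the same HFD library. By contrast, of 5241 protein-coding genes at 10 FPKM or more in ND males and in the 4 female libraries, 2496 (47.6%) were below 0, with a median of 0.00.

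**Figure D4:**
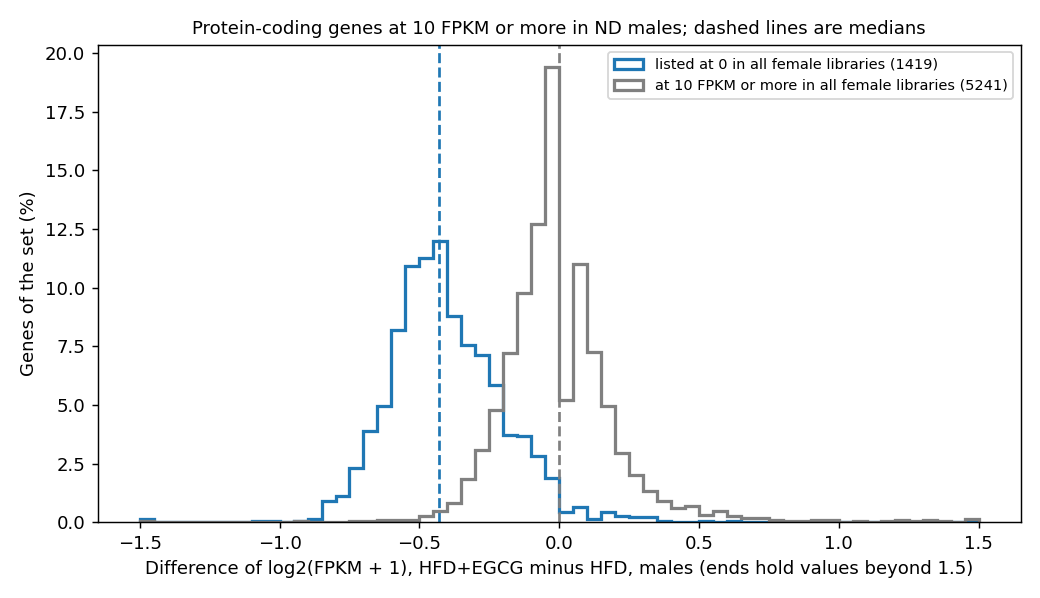
Distribution of the difference of log2(FPKM + 1), HFD+EGCG minus HFD males, for 1419 genes listed at 0 in all female libraries (blue) and for 5241 genes at 10 FPKM or more in all of them (grey), in percent of each set. The dashed lines are the medians, -0.43 and 0.00, and the blue distribution as a whole lies lower.

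Other gene groups were then divided by whether the female libraries also held the member. Of 92 cytosolic ribosomal protein genes, 82 were above 0 and 10 below, with a median of 0.12, where 26.5% of all genes were above 0. The 85 members at 10 FPKM or more in all female libraries had 82 above 0, for example the abundant RpL41, with 5790 FPKM in HFD+EGCG males against 5606 FPKM in HFD males, and RpL24, with 1636 FPKM in HFD+EGCG males, 1391 FPKM in HFD males and 1159 FPKM in ND males. The 6 members listed at 0 in all female libraries were below 0 in 6 of 6, with a median of -0.54. Among them RpL22-like had 14 FPKM in HFD+EGCG males, 21 FPKM in HFD males and 17 FPKM in ND males, RpL10Aa had 14, 21 and 21 FPKM, and RpS28-like had 10, 21 and 13 FPKM. RpS5b, a germline copy that is abundant in females, was also lower, with 18 FPKM in HFD+EGCG males and 28 FPKM in HFD males. Most ribosomal genes found in both sexes and the male-limited copies thus lay on opposite sides of 0.

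The nuclear-encoded genes of the respiratory chain, the mitochondrial complexes that make ATP, were mostly lower in both of these classes. Of 87 described, 81 were below 0 and 5 above, with a median of -0.15, where 50.7% of all genes were below 0. The 66 members at 10 FPKM or more in all female libraries had a median of -0.13, and the 18 listed at 0 in them had a median of -0.43. ND-24, a complex I subunit, had 282 FPKM in HFD+EGCG males, 349 FPKM in HFD males and 215 FPKM in ND males. The male-limited subunit copy COX4L had 104, 141 and 126 FPKM. The ND library was thus the lowest for ND-24 and stood between the others for COX4L. The most abundant subunit gene, ND-MLRQ, had 2399 FPKM in HFD+EGCG males, 2731 FPKM in HFD males and 2133 FPKM in ND males. ND-B8 had 60 FPKM in HFD+EGCG males against 97 FPKM in HFD males, COX7AL2 had 134 against 205 FPKM, and the male-limited ND-20L had 13 against 20 FPKM, while ND males had 49, 120 and 12 FPKM of these. In these 4 genes HFD+EGCG males were nearer to the ND level than HFD males were. The median of the list was 0.41 for HFD over ND, with the HFD library in common, against 0.02 over all genes. One gene of the list, ND-AGGG, was far from the rest, with 8 FPKM in HFD+EGCG males, 122 FPKM in HFD males and 4 FPKM in ND males. Here too the HFD library alone was high, and almost all of it lay in 1 of the gene's transcripts, with 7, 121 and 3 FPKM in the same order.

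Muscle genes had 9 of 28 members above 0 and 18 below, with a median of -0.11 that became -0.04 after centring. Of all genes at 10 FPKM or more, 30.6% were above 0 and 58.4% below, so the muscle counts lay near those of all genes. Troponin C isoform 4 (TpnC4), of the flight muscle, had 15 FPKM in HFD+EGCG males, 34 FPKM in HFD males and 15 FPKM in ND males. Flightin (fln) had 6 FPKM in HFD+EGCG males and 11 FPKM in HFD males, whereas the flight muscle actin Act88F had 45 FPKM in HFD+EGCG males against 25 FPKM in HFD males and 16 FPKM in ND males. Flight muscle genes therefore did not share a direction. The giant nesprin-type gene Msp300 had 60 FPKM in HFD+EGCG males against 48 FPKM in HFD males, and arginine kinase (Argk1), the most abundant member in HFD males, had 1497 against 1678 FPKM. In females TpnC4 had 31 FPKM on HFD+EGCG and 17 FPKM on HFD, and Act88F had 46 against 25 FPKM. Photoreceptor genes, neuron genes and mitochondrial ribosomal protein genes each had a median of 0.00. The light channel gene trp had 120 FPKM in HFD+EGCG males and 108 FPKM in HFD males, Rh2 had 16 against 14 FPKM, rdgB had 14 against 16 FPKM and Galphaq had 48 against 53 FPKM. Among neuron genes the synaptic vesicle gene nSyb had 159 FPKM in HFD+EGCG males and 166 FPKM in HFD males, Vmat had 18 against 20 FPKM, Gad1 had 34 against 37 FPKM, brp had 12 against 11 FPKM and Syn had 20 against 21 FPKM. These eye and nerve genes differed little between the libraries, whereas ninaD, a scavenger receptor gene of the carotenoid supply, had 1 FPKM in HFD+EGCG males against 4 FPKM in HFD males. Among mitochondrial ribosomal genes mRpL33 had 78 FPKM in HFD+EGCG males and 62 FPKM in HFD males, mRpL36 had 18 against 23 FPKM, mRpS25 had 17 against 20 FPKM, mRpL51 had 37 against 42 FPKM and mRpL42 had 133 against 128 FPKM.

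Genes of fat metabolism differed little, although the enzymes that build fatty acids leaned higher. Of 20 fat synthesis genes, 14 were above 0 and 6 below, against 26.5% and 50.7% of all genes, with a median of 0.09. Of them 1 was at least 2-fold higher, against 2.10% of all genes. This was Dgat2, at 4 FPKM in HFD+EGCG males against 1 FPKM in HFD males. Fatty acid synthase 1 (FASN1) had 240 FPKM in HFD+EGCG males, 152 FPKM in HFD males and 267 FPKM in ND males. Acetyl-CoA carboxylase (ACC), which makes malonyl-CoA for that synthase, had 100, 68 and 134 FPKM. Acetyl-CoA synthetase (AcCoAS) had 153 FPKM in HFD+EGCG males, 119 FPKM in HFD males and 192 FPKM in ND males. In these 3 genes HFD males were lowest and ND males highest. FASN2 had 116 FPKM in HFD+EGCG males against 92 FPKM in HFD males, and the desaturase Desat1, the most abundant member, had 979 against 946 FPKM. In females FASN1 had 127 FPKM on HFD+EGCG and 153 FPKM on HFD. The genes that release or transport stored fat had 2 of 13 above 0 and 9 below, with a median of -0.06 that became 0.01 after centring, and apolipophorin (apolpp), the main lipoprotein of fly blood, had 101 FPKM in HFD+EGCG males, 129 FPKM in HFD males and 211 FPKM in ND males. The lipid droplet protein genes Lsd-1 and Lsd-2 differed in direction, with 194 FPKM in HFD+EGCG males against 168 FPKM in HFD males for Lsd-1 and 226 against 251 FPKM for Lsd-2. Mtp had 10 against 12 FPKM and Apoltp 13 against 11 FPKM. Beta-oxidation genes had 14 of 23 above 0 and 7 below, with none 2-fold different. The acyl-CoA oxidase genes Acox57D-p, with 34 FPKM in HFD+EGCG males against 26 FPKM in HFD males, and Acox3, with 38 against 32 FPKM, were among the higher members. Arc42 had 34 against 31 FPKM, and wal, an electron transfer flavoprotein gene, had 226 against 224 FPKM. Of the Niemann-Pick sterol transport genes, Npc2e had 41 FPKM in HFD+EGCG males, 19 FPKM in HFD males and 36 FPKM in ND males. Npc2d had 49 FPKM in HFD+EGCG males against 40 FPKM in HFD males, Npc2a had 170 against 153 FPKM, Npc2f had 55 against 61 FPKM and Npc2g had 422 against 410 FPKM. Among metal-binding proteins, the metallothionein gene MtnC had 3222 FPKM in HFD+EGCG males, 4656 FPKM in HFD males and 3496 FPKM in ND males, and MtnE had 152, 213 and 110 FPKM. Both were highest in HFD males. Fer3HCH had 12 FPKM in HFD+EGCG males against 15 FPKM in HFD males, and the zinc transporter gene ZnT35C had 35 against 42 FPKM. Insulin and nutrient signalling genes had 7 of 20 above 0 and 8 below, with none 2-fold different. The transcription factor gene foxo had 15 FPKM in HFD+EGCG males against 19 FPKM in HFD males, Thor (4E-BP) had 541 against 549 FPKM, REPTOR-BP had 94 against 102 FPKM, Ilp6 had 11 against 12 FPKM and chico had 13 against 14 FPKM.

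Some of the genes with the largest differences belong to none of these groups. CG32198 had 82 FPKM in HFD+EGCG males, 16 FPKM in HFD males and 32 FPKM in ND males, and was also higher in females, at 39 FPKM on HFD+EGCG against 19 FPKM on HFD. CG15043 had 230 FPKM in HFD+EGCG males, 76 FPKM in HFD males and 152 FPKM in ND males, but in females 267 against 373 FPKM. Rdh1 had 24 FPKM in HFD+EGCG males, 6 FPKM in HFD males and 13 FPKM in ND males, with 11 against 21 FPKM in females. Of these 3 genes CG32198 alone had the same order in the female pair. CG13324 had 10 FPKM in HFD+EGCG males, 2 FPKM in HFD males and 14 FPKM in ND males. The mitochondrial complex I gene mt:ND4L had 303 FPKM in HFD+EGCG males, 99 FPKM in HFD males and 42 FPKM in ND males. Another message of the mitochondrial genome, mt:CoIII, was nearly level, with 25960 FPKM in HFD+EGCG males and 26039 FPKM in HFD males.

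Among the lowest genes, 2 neighbours on chromosome arm 2R lay together. The cuticle protein gene Cpr49Ab had 22 FPKM in HFD+EGCG males, 51 FPKM in HFD males and 51 FPKM in ND males, and CG13155, which starts just past its end, had 4, 10 and 9 FPKM. Both were higher on HFD+EGCG in females, where Cpr49Ab had 62 against 48 FPKM. CG33259, I-3, CG32811 and CG13611 had 4 to 10 FPKM in HFD+EGCG males, against 12 to 20 FPKM in HFD males, and were listed at 0 in all female libraries. CG45089 had 9 FPKM in HFD+EGCG males and 18 FPKM in both HFD and ND males. That difference lay in 1 of its transcripts, at 0 FPKM in HFD+EGCG males against 8 FPKM in HFD males, while the other had 9 against 10 FPKM.

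**Figure D5:**
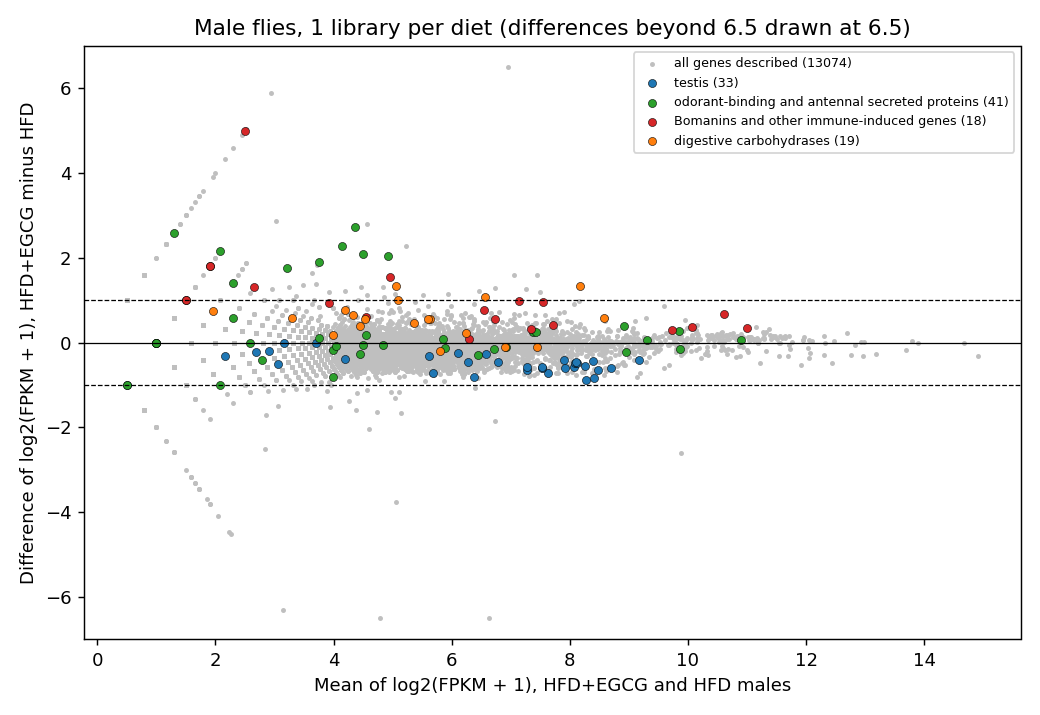
Difference of log2(FPKM + 1), HFD+EGCG minus HFD, against the mean of the 2 male libraries on the same scale, for the 13074 genes described (grey), with testis, antennal, Bomanin and carbohydrase genes in colour. The dashed lines mark 2-fold, the grey streaks at the left are genes listed at 0 in 1 library, and testis genes lie together a little below 0 over a wide range of levels.

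Genes listed at 0 in 1 of the libraries could not be given a fold. The oenocyte P450 gene Cyp4g1, which makes the hydrocarbons of the cuticle, was listed at 0 in HFD+EGCG males, against 9726 FPKM in HFD males and 9209 FPKM in ND males, and in females it had 6747 FPKM on HFD+EGCG and 6529 FPKM on HFD. The library of males on the high-fat diet with quercetin glucoside was at 0 as well. All 20 genes that lie within positions 268509 to 470726 of the X chromosome were listed at 0 in HFD+EGCG males, where 8 of them were above 0 in both HFD and ND males, among them CG12470 at 78 FPKM in HFD males and 73 FPKM in ND males, and lncRNA:CR44751 at 21 and 15 FPKM. The gene mt:CoI, for cytochrome c oxidase subunit I, had 15199 FPKM in HFD+EGCG males, was listed at 0 in HFD males and had 11765 FPKM in ND males. A value of 0 can be a failed estimate, and these values were not read as differences in expression.

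Small RNAs and long noncoding RNAs were less steady than protein-coding genes. At least 2-fold differences were found in 72.4% of 98 small nucleolar RNA genes, with 36 higher and 35 lower, and in 70.4% of 27 microRNA genes, with 10 higher and 9 lower. Of 1169 other noncoding genes 21.6% were 2-fold different, with 70 higher and 182 lower. Of the 11690 protein-coding genes 2.69% were, with 153 higher and 161 lower. Listed at 0 in 1 library and at 20 FPKM or more in the other were 5 small nucleolar RNA genes and 2 microRNA genes, among them FBgn0065059 at 0 FPKM in HFD+EGCG males against 764 FPKM in HFD males and 555 FPKM in ND males, and snoRNA:Me28S-U3344b at 58 FPKM against 0 and 23 FPKM. The others were snoRNA:Me28S-G3253, at 0 FPKM in HFD+EGCG males against 22 FPKM in HFD males, and snoRNA:nop5-x16-a and mir-4985, each at 32 FPKM in HFD+EGCG males against 0 FPKM in HFD males. snoRNA:Or-CD8 had 23 FPKM and mir-966 had 29 FPKM in HFD+EGCG males, against 0 FPKM in HFD and ND males. Whether such short transcripts were captured alike in the libraries was not tested.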

How the data were processed

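Male and female flies on 4 diets were sequenced with 1 library per diet and sex, on a strand-specific kit, per the labels' protocols. The authors deposited FPKM per FlyBase transcript rounded to whole numbers, handled here as a score; the submitters' processing notes name CASAVA 1.8.2, TopHat2 2.1.1 and Cuffdiff 2.2.1, and the build and parameters are not given in the sources used here. Gene locations in the tables matched those of BDGP6.54 for 99.2% of 17431 genes. FPKM were summed per gene (pandas 2.3.3), genes at 1 FPKM or more in either library were kept, and differences of log2(FPKM + 1) were taken, a scale that understates changes of low genes. At least 2-fold means a difference of 1 or more in size. A gene listed at 0 can hold up to 0.5 FPKM per transcript, or be a failed estimate. No test was possible, and the scripts were tested on simulated data.

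The groups, the 45 gene lists and the rules were chosen with earlier results of these data known; 12 list names were not found. The text names the 12 highest and 12 lowest protein-coding genes among those at 10 FPKM or more in either library and above 0 in both, genes at 0 in one library and at 20 FPKM or more in the other, and for described lists the 4 members with the largest difference and the one with the highest FPKM. One gene that the rule would name is not reported here. Genes named beyond that rule were chosen after their values were seen. Pseudocount, filter, scaling and transcript summing were varied. Values of close gene copies and of overlapping genes are uncertain, since neither the division of shared reads nor the use of strand is stated.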

Additional observations from a re-analysis of the deposited data

Results flagged for a closer look

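The difference between HFD+EGCG and HFD had opposite signs in males and females, past 2-fold in each sex, for 2 of the genes named above. CG13324 had 10 FPKM in HFD+EGCG males against 2 FPKM in HFD males, and 36 FPKM in HFD+EGCG females against 77 FPKM in HFD females. Its log2 difference in males minus that in females was 2.95. The mitochondrial gene mt:ND4L had 303 FPKM in HFD+EGCG males against 99 FPKM in HFD males, and 42 FPKM in HFD+EGCG females against 196 FPKM in HFD females. Its log2 difference in males minus that in females was 3.80. This short gene, at positions 9545 to 9835 of the mitochondrial genome, had 42 FPKM in ND males and 177 FPKM in ND females. Of 12 mitochondrial genes described in males, 2 were at least 2-fold higher. These were mt:ND4L and mt:CoI, and mt:CoI was listed at 0 in HFD males. With 1 library for each diet and sex, neither difference between the sexes was tested.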

How the results depend on the processing

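None of the 24 genes with the highest and lowest differences changed sign under the alternatives run, nor did the medians of the Bomanin, carbohydrase, odorant-binding, testis, accessory gland and male-limited sets. List medians near 0 did: centring gave 0.02 for serine proteases and 0.01 for lipolysis genes in place of -0.06 each, and taking the highest transcript gave -0.05 for sterol transport genes in place of 0.02. The counts of 2-fold genes, and which direction held more of them, depended on the settings. The 275 higher and 401 lower genes became 60 and 39 with a pseudocount of 5 FPKM, 58 and 38 with a minimum of 10 FPKM, 83 and 85 without genes listed at 0 in either library, and 153 and 161 among protein-coding genes. The lower count was 84 after scaling to a common sum and 83 after centring on the median of genes at 10 FPKM or more. It was also 84 with mt:CoI and Cyp4g1 left out of the sum, an alternative chosen after seeing the data. Such shifts take genes at 0 FPKM against 1 FPKM, which lie exactly at the 2-fold limit, out of the lower count. The share of higher genes, 40.7% as deposited, was 60.6%, 60.4%, 49.4%, 48.7%, 76.8%, 77.2% and 76.9% under these settings in the order given. Bomanin and immune-induced members at least 2-fold higher numbered 2 rather than 5 with a pseudocount of 5 or a minimum of 10 FPKM, and 8 after centring. The 11 odorant-binding members became 6 at a minimum of 10 FPKM, which leaves fewer genes, and the accessory gland median of -0.22 became -0.14 after centring. Centring also gave 0.19 for ribosomal and -0.08 for respiratory chain genes. The male-limited median lay between -0.44 and -0.36. Of the same 24 genes, CG13611, CG45089 and Jon25Bii were under 2-fold as deposited, and CG13155, TpnC4, I-3, CG32811 and RpS28-like were under it in some alternative. The difference of CG45089 was -0.14 by its highest transcript. No paired analysis was possible because there was 1 library per diet and sex, and for the same reason no replicate could be left out. Unknown depth leaves values of a few FPKM without an error.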

Other observations

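Some gene families outside the described lists, looked at after their values were seen, had nearly all members on 1 side of 0 in males. Over all genes, 30.6% of those at 10 FPKM or more were above 0 in males, and 34.6% of those at 1 FPKM or more were below 0 in females. Male-limited genes, mostly below 0, are part of the share in males. Of 5241 protein-coding genes at 10 FPKM or more in ND males and all female libraries, 2049 were above 0 in males. The DM9 repeat is a domain of unknown role in flies. Of 9 DM9 genes that reached 10 FPKM in HFD+EGCG or HFD males, 9 were higher in HFD+EGCG males. Their median difference of log2(FPKM + 1) was 0.46. CG10916 reached 10 FPKM in HFD+EGCG males alone, with 12 FPKM against 8 FPKM in HFD males, so the filter fixed its direction. Among the 9 genes CG44250 and CG44251 overlap on chromosome arm 2R, so their values may not be separate measurements. CG13321 had 191 FPKM in HFD+EGCG males, 118 FPKM in HFD males and 150 FPKM in ND males, and CG5506 had 251, 170 and 231 FPKM. In females 8 of the 9 were lower on HFD+EGCG, with a median of -0.43, and CG5506 had 689 FPKM on HFD+EGCG and 844 FPKM on HFD. Of 8 genes of the DUF725 family, 7 were higher in HFD+EGCG males, with a median of 0.47 in males and -0.34 in females. CG10911 had 767 FPKM in HFD+EGCG males, 511 FPKM in HFD males and 619 FPKM in ND males, with 1060 against 1478 FPKM in females.

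The subunits of the TCP-1 chaperonin, which folds actin and tubulin, differed by less but in 1 direction. All 8 genes were higher in HFD+EGCG males, with a median of 0.25, against 30.6% of all genes at 10 FPKM or more. All 8 were lower in HFD+EGCG females, with a median of -0.07, against 34.6% of all genes at 1 FPKM or more. CCT6 had 77 FPKM in HFD+EGCG males, 62 FPKM in HFD males and 52 FPKM in ND males. The families were picked from these libraries, so their counts are descriptions, and the differences between the sexes were not tested.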
